A study of Mus musculus with 21 samples.

Results

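Endoplasmic reticulum (ER) chaperone and unfolded protein response genes were followed as a set of 32 in mouse liver. Members were the rows of the deposited count table whose Ensembl identifier carries one of the 32 symbols in GENCODE M21 (build GRCm38). Each symbol matched 1 row of the 46078, and all 32 were among the 14370 genes that passed the filter on low counts. The study compared Cse knockout mice (Cse, symbol Cth, encodes cystathionine γ-lyase, the last enzyme of cysteine synthesis) with mice labelled WT, on a control diet (CTR), a diet without cysteine (noCys) or a diet without tryptophan (noTrp). Of the 21 libraries, the noCys diet had 3 from KO (numbered 1, 3 and 4) and 4 from WT, the noTrp diet 5 from KO and 2 from WT, and the control diet 4 from KO and 3 from WT. Per the labels and the study's methods all were male, at least 9 weeks old and calorie restricted, first on the control diet and then on their assigned diet for 2 days, and the depleted diets held proportionally more of the other amino acids. The knockout line is on a 129/C57BL/6 background, and the study's text describes its comparison animals as heterozygous, so WT is used below only as the label. No label says that animals of a group came from separate litters or cages.

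Secreted and membrane proteins fold in the ER, where chaperones of the heat shock families bind unfolded chains, lectin chaperones hold glycoproteins, and protein disulfide isomerases make and rearrange bonds between cysteines. When unfolded chains accumulate, the sensors IRE1α (Ern1), PERK (Eif2ak3) and ATF6 are activated. IRE1α splices the mRNA of Xbp1, ATF6 is cut to release a transcription factor, and PERK phosphorylates eIF2α, which slows translation. Spliced XBP1 and cleaved ATF6 raise chaperones and the machinery of ER-associated degradation (ERAD), which pulls misfolded proteins back to the cytosol for destruction. The liver secretes most plasma proteins, so its hepatocytes carry a heavy folding load. Gene counts show mRNA levels only: splicing of Xbp1, cleavage of ATF6 and phosphorylation of PERK or eIF2α are not visible in them.

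Library totals ran from 8889951 to 27230852 counts, and values below are in CPM, a gene's count relative to its library's total after scaling by TMM, whose factors ran from 0.883 (WT CTR replicate 3) to 1.14 (KO noCys replicate 3). Cth itself measured 8.12, 6.34 and 7.33 CPM in KO noCys and 259.7, 262, 253 and 225 CPM in WT noCys, and in each diet every KO library lay below every WT library. Hepatocyte markers were present throughout, with a summed level of 50230 to 72450 CPM over 9 genes in KO noCys and 66810 to 102400 CPM in the other groups. Of 13 markers of pancreatic acinar cells, which carry high ER chaperone levels, 6 (Prss1, Cela3b, Cpa1, Cpb1, Pnlip and Amy2a5) were at 0 in all 21 libraries, and Cela1 and Cela2a were detected in all 21, Cela1 at up to 37.0 CPM and Cela2a at up to 0.678. The summed level of the 13 was 15.4 to 17.9 CPM in KO noCys, 12.4 to 17.1 in WT noCys, 11.99 to 13.99 in KO CTR, 17.5 to 23.4 in WT CTR, 15.4 to 24.1 in KO noTrp, and 10.9 and 38.1 in WT noTrp, the 38.1 nearly all from Cela1, and its part in the results was not tested. Ctrl and Ctrb1, which encode chymotrypsin family proteases, stayed at or under 0.792 and 0.776 CPM in every library. In bulk liver, fewer cells of a type and less RNA per cell cannot be told apart.

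Of the 32 ER genes, 17 (53.1%) were called higher in KO noCys compared with WT noCys, against 14.8% of all genes tested, and 0 were called lower, against 13.4%. A gene was called at an adjusted p under 0.05 in edgeR's quasi-likelihood test, with Benjamini-Hochberg adjustment over all 14370 genes, and this test gives every adjusted p below. KO CTR carried the same genotype label as KO noCys and differed from it in the labelled diet. Against KO CTR, 14 members (43.8%) were higher in KO noCys and 0 were lower. Of all genes, 10.6% and 9.59% were called in those directions. The median log2 fold change of the members was 0.526 in the first comparison and 0.448 in the second, while the median over all genes was -0.015 and 0.004. Both comparisons share the KO noCys libraries. All KO noCys libraries lay above all WT noCys libraries for 17 members, and above all KO CTR libraries for 16. Of all genes, 19.4% and 15.4% did so. They lay below for 0 members in either comparison, against 18.1% and 13.2% of all genes. The 12 members called in both were Atf6, Hspa5, Hyou1, Calr, Dnajb11, Sdf2l1, Pdia4, Creld2, Derl1, Derl3, Syvn1 and Wfs1. Scaling by library totals alone moved the median of all genes to 0.200 and 0.132, the share of called genes that were higher from 52.5% to 80.0% and from 52.6% to 73.7%, and the members called to 26 and 19, all of them higher. At an unadjusted p under 0.05 there were 21 members in each comparison, of which 0 and 1 (Sec61b) had a negative difference. DESeq2 called 18 higher and 0 lower against WT noCys, and 16 higher and 1 lower (Sec61b) against KO CTR, and limma-voom 20 and 0, and 17 and 1 (Sec61b). Here and below, limma-voom was run with quality weights, which give variable libraries less weight.

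**Figure D1:**
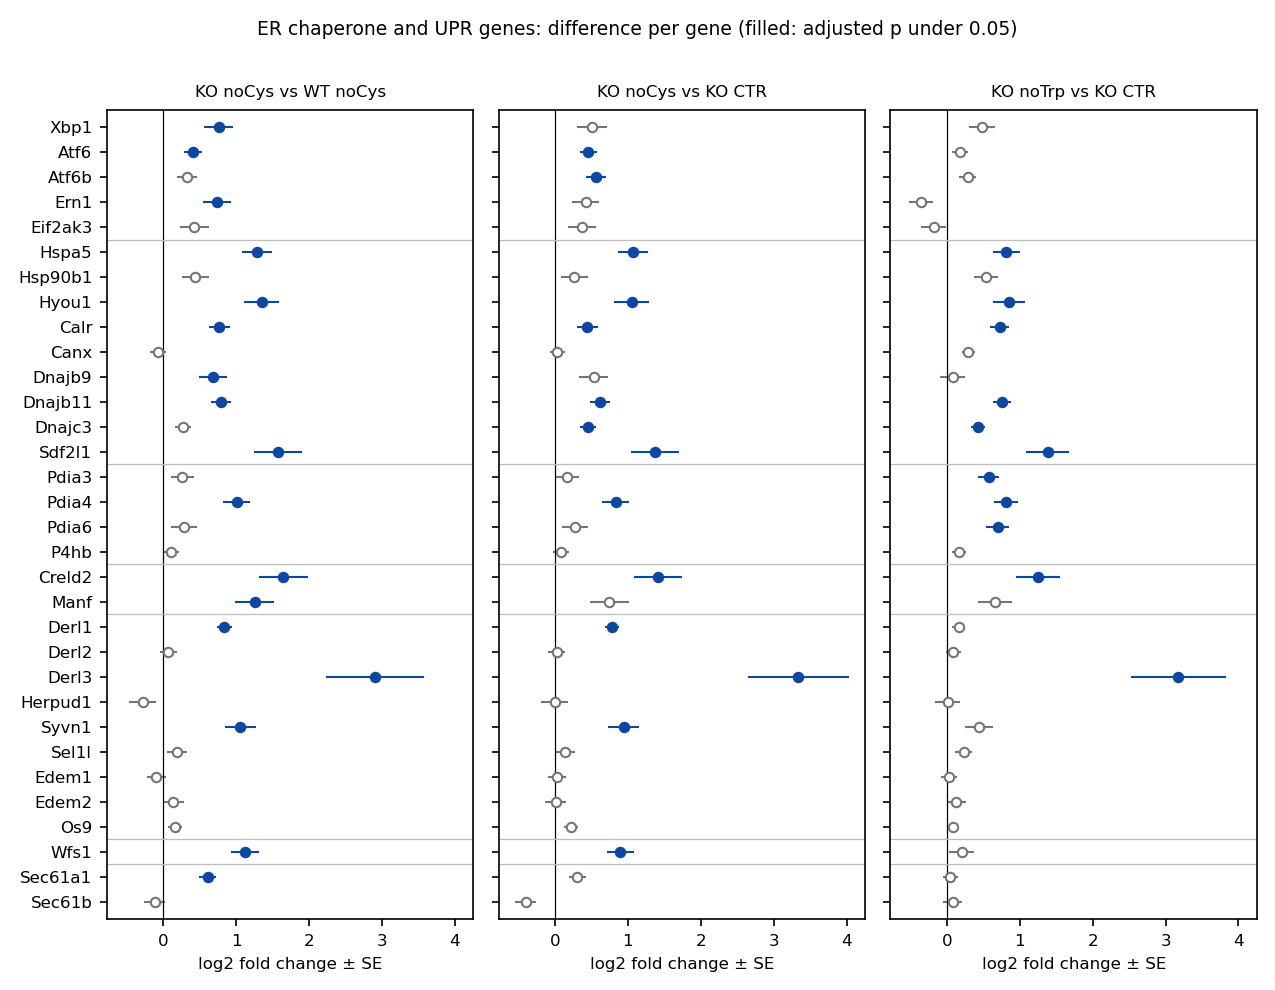
Log2 fold change of each of the 32 members (points) with its standard error (bars) in KO noCys against WT noCys, KO noCys against KO CTR and KO noTrp against KO CTR, ordered by role with grey lines between roles. Filled points had an adjusted p under 0.05: 17, 14 and 11 of the 32, all of them to the right of 0.

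The sequence that XBP1 and ATF6 are known to read, the ER stress element, was searched for as a description. These factors are known to raise chaperones and ERAD genes, so matches among the members were likely beforehand and are no independent evidence. The element is CCAAT and CCACG with 9 bases between, and its second form is ATTGG and CCACG with 1 base between. Both strands were searched in the RefSeq promoter windows (GRCm38.p6), 250 bases before to 50 after each start. The first form was in 39 of 32851 windows (0.119%) and the second in 12 (0.0365%). Of the 32 members, 27 had a window (28 windows, since Derl2 has 2), and Atf6, Hyou1, Manf, Derl1 and Sec61a1 had none. The first form was in the windows of 9 members (Hspa5, Hsp90b1, Calr, Canx, Dnajc3, Pdia6, Creld2, Derl3 and Syvn1) and the second in those of 2 (Dnajb11 and Herpud1). These 11 are among the 49 symbols of the whole table with either form. CCACG alone, which both forms contain, was in 32.8% of all windows and in those of 21 members.

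The elements of 7 members are shown with 20 bases on each side (9 for Dnajb11, whose element lies 8 bases after the start), read along the strand of the element, with the CCAAT or ATTGG and the CCACG in capitals. The first 5 belong to members called higher in KO noCys compared with WT noCys, and the last 2 to members that were not.
Hspa5 (chr2:34772005-34772063, + strand): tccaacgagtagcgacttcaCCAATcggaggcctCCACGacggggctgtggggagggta
Creld2 (chr15:88819500-88819558, - strand): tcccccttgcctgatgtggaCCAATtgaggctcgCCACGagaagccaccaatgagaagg
Derl3 (chr10:75893222-75893280, - strand): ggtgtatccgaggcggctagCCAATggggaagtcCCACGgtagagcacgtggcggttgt
Syvn1 (chr19:6046512-6046570, + strand): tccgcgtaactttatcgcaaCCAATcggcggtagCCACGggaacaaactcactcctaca
Dnajb11 (chr16:22857843-22857871, + strand): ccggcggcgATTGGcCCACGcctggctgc
Canx (chr11:50325780-50325838, - strand): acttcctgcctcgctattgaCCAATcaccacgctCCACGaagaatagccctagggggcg
Herpud1 (chr8:94386357-94386407, + strand): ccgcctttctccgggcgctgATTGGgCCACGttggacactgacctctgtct
The element began 65 bases before the RefSeq start in Hspa5, 126 in Creld2, 156 in Derl3, 44 in Syvn1, 145 in Canx and 52 in Herpud1. In Creld2 and Derl3 it lay on the strand opposite to the gene. The whole 250 bases before the RefSeq start of Wfs1, which rose without either form in its window, and of Hspa5 are shown for comparison. The RefSeq starts of both genes lie inside the GENCODE coordinates given for them below. So do part of the printed Hspa5 stretch and most of the Wfs1 stretch.
Hspa5 (chr2:34771840-34772089, + strand): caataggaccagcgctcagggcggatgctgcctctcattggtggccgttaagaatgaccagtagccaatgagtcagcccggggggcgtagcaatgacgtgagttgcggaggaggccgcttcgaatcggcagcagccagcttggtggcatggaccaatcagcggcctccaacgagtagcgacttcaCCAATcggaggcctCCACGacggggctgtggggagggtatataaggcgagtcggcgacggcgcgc
Wfs1 (chr5:36988983-36989232, - strand): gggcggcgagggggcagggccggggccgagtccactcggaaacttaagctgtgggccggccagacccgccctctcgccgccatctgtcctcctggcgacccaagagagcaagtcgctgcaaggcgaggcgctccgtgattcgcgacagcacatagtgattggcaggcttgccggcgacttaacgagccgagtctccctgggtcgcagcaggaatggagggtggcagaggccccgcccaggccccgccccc
Of the 11 members with an element, 6 were called higher in KO noCys compared with WT noCys, against 14.8% of all genes tested. The log2 fold changes of the 11 ran from -0.283 to 2.904, with a median of 0.769. Of the 16 without an element in their window, 6 were called, and the median of the 16 was 0.291. All 5 without a window were called. A match is a stretch of letters and was not tested for binding. Only exact matches were counted, so members without one could hold a variant.

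Hspa5 (chr2:34771970-34777547, + strand) encodes BiP, the main HSP70 chaperone of the ER. It measured 1279, 1179 and 1527 CPM in KO noCys, 391, 524, 514 and 741 in WT noCys, with 460.5, 632, 712 and 723 in KO CTR. WT CTR held 574, 542 and 727 CPM, WT noTrp 937 and 759.8 and KO noTrp 900.4, 1170, 933, 1527 and 1028. Every KO noCys library was above every WT noCys, KO CTR and WT CTR library, and the KO noCys and KO noTrp libraries overlapped. The log2 fold change was 1.29 ± 0.21 (SE, adjusted p = 0.000137) against WT noCys, a 2.45-fold difference, and 1.07 ± 0.21 (SE, adjusted p = 0.00112) against KO CTR. Its window holds the element printed above.

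Hyou1 (chr9:44379490-44392369, + strand), a large HSP70-like chaperone that also exchanges nucleotide on BiP, measured 301, 305 and 387 CPM in KO noCys, 90.6, 112, 127 and 189.5 in WT noCys, with 131, 152, 188 and 168 in KO CTR. WT CTR held 169, 122 and 203 CPM, WT noTrp 221 and 233 and KO noTrp 189, 339, 247, 411 and 252. The 3 KO noCys libraries were above all WT noCys, KO CTR and WT CTR libraries, and WT noCys replicate 4 was the highest of its group. The log2 fold change was 1.35 ± 0.24 (SE, adjusted p = 0.000396) against WT noCys, and 1.05 ± 0.24 (SE, adjusted p = 0.00429) against KO CTR.

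Dnajb11 (chr16:22857845-22879634, + strand), a J-domain protein that delivers unfolded chains to BiP, measured 149, 137 and 166 CPM in KO noCys, 79.8, 86.4, 82.4 and 98.4 in WT noCys, with 77.3, 100.1, 101 and 114 in KO CTR. WT CTR held 90.4, 91.1 and 98.6 CPM, WT noTrp 132 and 140.0 and KO noTrp 132, 174, 156, 213 and 152. The WT noTrp, KO noTrp and KO noCys libraries lay above all 11 others. Its log2 fold change was 0.79 ± 0.14 (SE, adjusted p = 0.000321) against WT noCys and 0.62 ± 0.14 (SE, adjusted p = 0.00379) against KO CTR.

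Sdf2l1 (chr16:17130138-17132383, - strand), which works in a complex with Dnajb11, measured 66.3, 67.4 and 97.2 CPM in KO noCys, 20.8, 25.7, 23 and 33.8 in WT noCys, with 18.3, 22.3, 36.8 and 42 in KO CTR. WT CTR held 27.1, 27.1 and 39.7 CPM, WT noTrp 43.3 and 66.2 and KO noTrp 35.1, 88.2, 63.7, 128 and 73.8. KO noCys was above WT noCys and both control groups with no overlap, while the 5 KO noTrp livers spread from below the highest control library to the highest value of all 21. The log2 fold change was 1.57 ± 0.33 (SE, adjusted p = 0.00142) against WT noCys and 1.38 ± 0.33 (SE, adjusted p = 0.00563) against KO CTR.

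Dnajc3 (chr14:118937976-118981697, + strand), known as an inhibitor of eIF2α kinases and a BiP partner, measured 303, 266 and 285 CPM in KO noCys, 185, 196, 225 and 225 in KO CTR and 223, 217, 258 and 242 in WT noCys. WT CTR held 193, 217 and 248 CPM, WT noTrp 298 and 261 and KO noTrp 273, 272, 262, 321 and 274. KO noCys did not overlap with either group, but only the difference from KO CTR was called, at 0.45 ± 0.11 (SE, adjusted p = 0.00522), and that from WT noCys was 0.28 ± 0.11 (SE, adjusted p = 0.0597). Dnajb9, a target of XBP1 that represses IRE1α, was called against WT noCys at 0.68 (adjusted p = 0.0126) and not against KO CTR, at 0.53 (adjusted p = 0.0581). Without KO noCys replicate 1, its highest library, the first value was 0.45 and was not called.

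Of the lectin chaperones, Calr was called and Canx was not. Calr (chr8:84841850-84846934, - strand), the soluble calreticulin, measured 1292, 1076 and 1352 CPM in KO noCys, 633, 721, 744 and 813 in WT noCys, with 812, 816, 909 and 1113 in KO CTR. WT CTR held 771, 714 and 914 CPM, WT noTrp 1274 and 1544 and KO noTrp 1253, 1469, 1420, 1897 and 1524. It was higher in KO noCys by 0.77 ± 0.15 (SE, adjusted p = 0.000621) than in WT noCys, with no overlap. Against KO CTR the libraries overlapped and the difference was 0.44 ± 0.15 (SE, adjusted p = 0.0371), a call that was lost when 1 of 5 libraries was left out (KO noCys replicates 1 or 4, or KO CTR replicates 1, 2 or 3). Canx, the membrane-bound calnexin, was at -0.07 (adjusted p = 0.645) against WT noCys and 0.03 (adjusted p = 0.866) against KO CTR. Hsp90b1, the ER HSP90 (it overlaps the predicted genes Gm15344 and Gm25745 on its strand), was at 0.44 (adjusted p = 0.0838) and 0.27 (adjusted p = 0.343) and was not called.

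**Figure D2:**
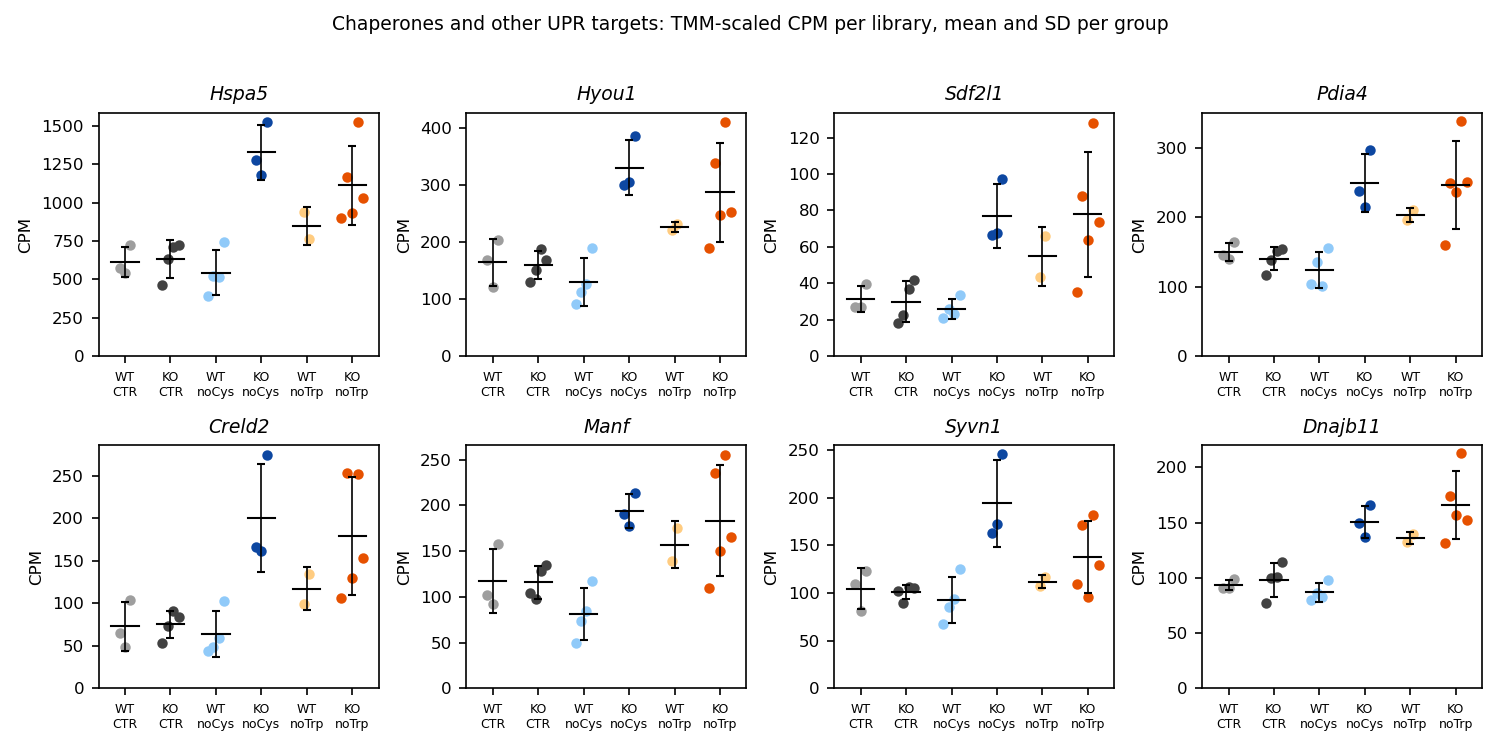
CPM of 8 chaperones and other targets in each of the 21 libraries (points), with the group mean (line) and SD (bars), on linear axes from 0. The 3 KO noCys libraries lie above all WT noCys libraries for each of the 8 genes, and the KO noTrp libraries spread over a wider range.

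Among the protein disulfide isomerases, Pdia4 alone was called in the cysteine comparisons. Pdia4 (chr6:47796141-47813430, - strand) measured 238, 215 and 297 CPM in KO noCys, 103, 136, 102 and 156 in WT noCys, with 117, 139, 151 and 155 in KO CTR. WT CTR held 146, 140.1 and 164 CPM, WT noTrp 197 and 210.3 and KO noTrp 159.7, 249, 236, 338 and 252. KO noCys did not overlap with WT noCys or with either control group, and its log2 fold change was 1.01 ± 0.19 (SE, adjusted p = 0.000568) against WT noCys and 0.83 ± 0.19 (SE, adjusted p = 0.00403) against KO CTR. Pdia3, which acts with the lectin chaperones on glycoproteins, was at 0.26 (adjusted p = 0.231) against WT noCys and 0.16 (adjusted p = 0.505) against KO CTR. Pdia6, which also attenuates IRE1α, was at 0.29 (adjusted p = 0.237) and 0.27 (adjusted p = 0.298). P4hb, which is also a subunit of the collagen prolyl hydroxylase, was at 0.11 (adjusted p = 0.469) and 0.08 (adjusted p = 0.627). Per kilobase of exon, P4hb was at 569 ± 42.5 CPM (SD, n = 4) in KO CTR, against 145 ± 22.0 for Pdia3, 60.4 ± 11.7 for Pdia6 and 58.6 ± 7.08 for Pdia4. Pdia3 overlaps Catsper2 and Pdia6 overlaps Atp6v1c2 on the opposite strand, and the strand setting of the counting was not stated.

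Both small ER proteins among the members were called higher against WT noCys, where 14.8% of all genes were. Creld2 (chr15:88819646-88826683, + strand), an ER-resident protein with isomerase activity, measured 166, 161 and 274 CPM in KO noCys, 43.9, 49, 59.3 and 103 in WT noCys, with 53.5, 72.7, 90.4 and 84 in KO CTR. WT CTR held 65, 49.1 and 104 CPM, WT noTrp 99.1 and 135 and KO noTrp 107, 254, 130.0, 253 and 154. The KO noCys libraries lay above all 11 WT noCys and control libraries, and the log2 fold change was 1.65 ± 0.33 (SE, adjusted p = 0.00101) against WT noCys, and 1.42 ± 0.33 (SE, adjusted p = 0.0048) against KO CTR. Manf (chr9:106838312-106891979, - strand), an ER protein that is secreted under stress, measured 190.3, 178 and 214 CPM in KO noCys and 49.1, 74.1, 85 and 117 in WT noCys, with 104, 97.3, 128 and 134 in KO CTR. WT CTR held 102, 92.4 and 158 CPM, WT noTrp 139 and 175 and KO noTrp 109.6, 236, 151, 256 and 165. It was higher than in WT noCys by 1.25 ± 0.27 (SE, adjusted p = 0.00168) and stood at 0.74 ± 0.27 (SE, adjusted p = 0.0531) against KO CTR, where the libraries did not overlap but the test was not passed. Manf shares its strand with Rbm15b over part of its length, so its reads cannot be fully separated from that gene.

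Of the 5 sensors and transcription factors, 3 were called higher against WT noCys (Xbp1, Atf6 and Ern1) and 2 against KO CTR (Atf6 and Atf6b). Of all genes, 14.8% and 10.6% were called higher in these comparisons. Xbp1 (chr11:5520659-5525893, + strand) measured 185, 227 and 198 CPM in KO noCys, 93.2, 115, 125 and 148 in WT noCys, with 146, 153, 128 and 145 in KO CTR. WT CTR held 168, 120.5 and 141 CPM, WT noTrp 123 and 210.4 and KO noTrp 173, 130.4, 206, 249.8 and 245. It was higher in KO noCys compared with WT noCys by 0.76 ± 0.20 (SE, adjusted p = 0.00849) without overlap, and was at 0.51 ± 0.20 (SE, adjusted p = 0.0845) against KO CTR. Without KO noCys replicate 3 the first difference was 0.67 and the call was lost.

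Atf6 (chr1:170704674-170867771, - strand) measured 68.1, 85.9 and 72 CPM in KO noCys, 56.6, 58.9, 58.1 and 53.7 in WT noCys, with 46.8, 60.2, 61.9 and 50.8 in KO CTR. WT CTR held 53.4, 49.1 and 55.2 CPM, WT noTrp 68 and 49.2 and KO noTrp 72, 57.1, 60.3, 63.4 and 58.6. The 3 KO noCys livers were above WT noCys and KO CTR, by 0.41 ± 0.12 (SE, adjusted p = 0.015) and 0.46 ± 0.12 (SE, adjusted p = 0.0107) but both calls were lost without KO noCys replicate 3 (0.30 and 0.35). Atf6b (chr17:34647146-34655074, + strand), its paralogue with weaker activity, measured 21.1, 29.3 and 29.9 CPM in KO noCys, 18.4, 22.9, 20.4 and 24.3 in WT noCys, with 16.6, 21.3, 16.6 and 18.1 in KO CTR. WT CTR held 14.6, 16.1 and 12.3 CPM, the lowest group, with 23.1 and 22.2 in WT noTrp, with 23.8, 24.9, 19.2, 22.7 and 20.5 in KO noTrp. It was called against KO CTR at 0.56 ± 0.14 (SE, adjusted p = 0.00666) where KO noCys replicate 1 lay just below KO CTR replicate 2, and not against WT noCys, at 0.32 ± 0.14 (SE, adjusted p = 0.0849). The first call was lost without KO noCys replicate 3.

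Ern1 (chr11:106394650-106487852, - strand), the gene of IRE1α, measured 31.8, 67.3 and 52.2 CPM in KO noCys, 30.9, 32.5, 27 and 31.4 in WT noCys, with 33.8, 49, 33.1 and 35.5 in KO CTR. WT CTR held 43.3, 36.4 and 44.8 CPM, WT noTrp 36.2 and 27.9 and KO noTrp 29.1, 23.1, 29.8, 32.5 and 33.4. KO noCys replicate 1 lay within the WT noCys range and replicates 3 and 4 above every other library. The log2 fold change against WT noCys was 0.74 ± 0.19 (SE, adjusted p = 0.00654) and it fell to 0.47 without KO noCys replicate 3, when it was not called. Eif2ak3 (chr6:70844515-70905245, + strand), the gene of PERK, measured 18.9, 14.7 and 11.5 CPM in KO noCys, 10.2, 8.33, 12.8 and 12.8 in WT noCys, 8.7, 13.3, 12.4 and 11.6 in KO CTR, 9.64, 10.1 and 10.1 in WT CTR, 15.6 and 8.59 in WT noTrp, with 10.8, 9.85, 9.05, 10.4 and 10.8 in KO noTrp. It was called in none of the comparisons. KO noCys overlapped with WT noCys and KO CTR, at 0.43 ± 0.20 (SE, adjusted p = 0.109) against WT noCys, and lay above all 5 KO noTrp libraries, at 0.56 ± 0.19 (SE, adjusted p = 0.052).

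**Figure D3:**
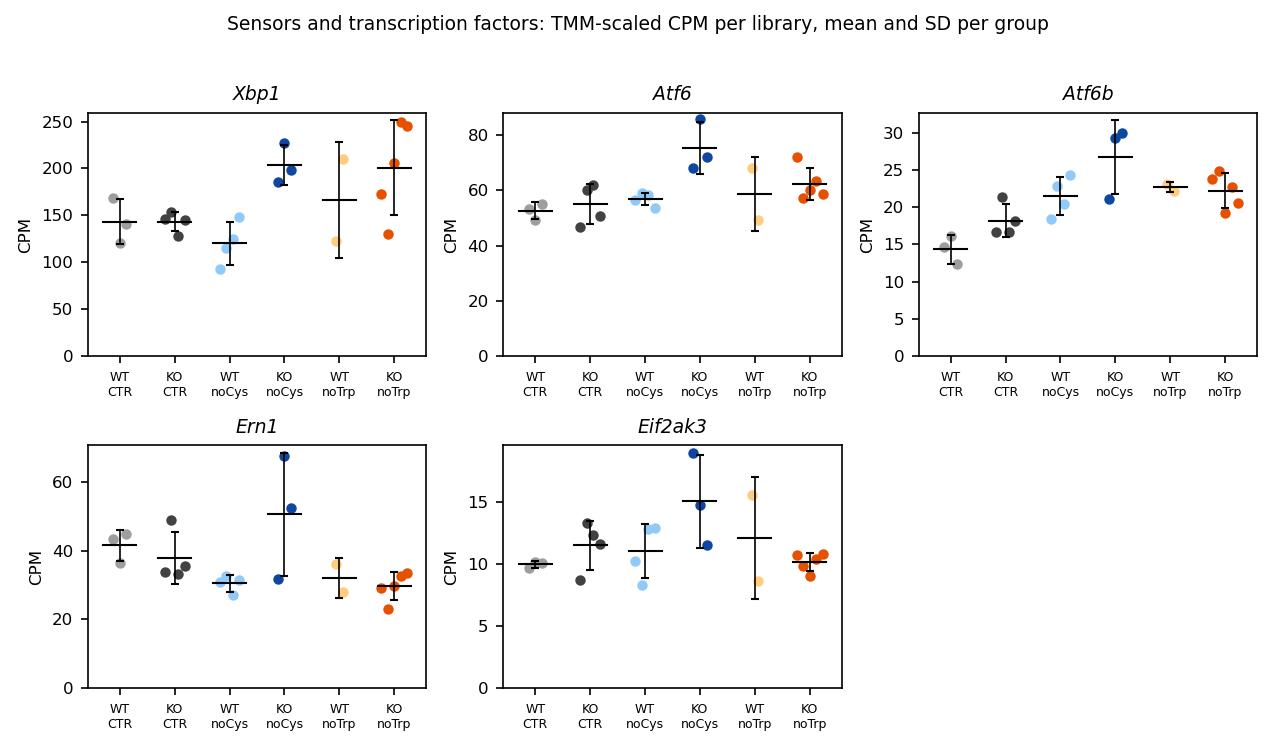
CPM of Xbp1, Atf6, Atf6b, Ern1 and Eif2ak3 in each of the 21 libraries (points), with the group mean (line) and SD (bars), on linear axes from 0. The KO noCys libraries do not overlap with WT noCys for Xbp1 and Atf6, and overlap for Atf6b, Ern1 and Eif2ak3.

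Of the 9 ERAD members, Derl1, Derl3 and Syvn1 were called higher in KO noCys compared with WT noCys and than in KO CTR, and the other 6 in neither. The derlins are membrane proteins that form part of the channel for retrotranslocation. Derl1 (chr15:57869502-57892448, - strand) measured 189.6, 256 and 206 CPM in KO noCys, 118, 124, 118 and 125 in WT noCys, with 119, 127, 129 and 129.5 in KO CTR. WT CTR held 126, 133 and 116 CPM, WT noTrp 150.5 and 130.5 and KO noTrp 152, 131, 130.5, 156 and 135. All 3 KO noCys livers were above all 18 others, which spanned a narrow range. Derl1 had the smallest adjusted p of the 32 members, at 0.84 ± 0.10 (SE, adjusted p = 7.35e-06) against WT noCys and 0.78 ± 0.10 (SE, adjusted p = 2.41e-05) against KO CTR, a 1.79-fold and a 1.72-fold difference.

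Derl3 (chr10:75893413-75895941, + strand) was the least abundant member per kilobase of exon in KO CTR, at 0.88 ± 0.559 CPM (SD, n = 4), and had the largest log2 fold change of the 32 in both comparisons. It measured 10.7, 9.91 and 29.5 CPM in KO noCys, 1.05, 1.46, 3.04 and 3.27 in WT noCys, with 0.571, 1.03, 2.76 and 2.65 in KO CTR. WT CTR held 1.8, 2.94 and 1.98 CPM, WT noTrp 2.21 and 11.9 and KO noTrp 2.44, 16.6, 11.9, 30.9 and 14.1. The log2 fold change was 2.904 ± 0.67 (SE, adjusted p = 0.00309) against WT noCys, and 3.34 ± 0.69 (SE, adjusted p = 0.00203) against KO CTR, without overlap in either, and its lowest count in a library was 8. KO noCys replicate 4 and KO noTrp replicate 4 were the highest, and WT noTrp replicate 2 stood with the KO noTrp livers. Derl2, which overlaps Mis12 on the opposite strand, was at 0.07 (adjusted p = 0.692) and 0.02 (adjusted p = 0.915), with 149, 130.3 and 158 CPM in KO noCys and 125, 137, 144 and 150.1 in WT noCys.

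**Figure D4:**
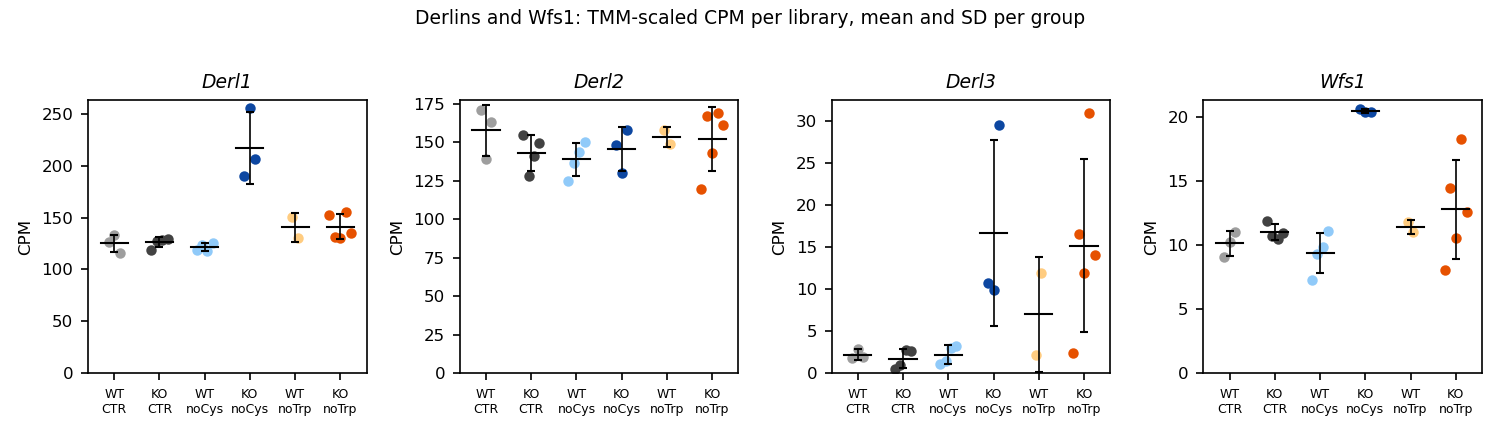
CPM of the 3 derlins and Wfs1 in each of the 21 libraries (points), with the group mean (line) and SD (bars), on linear axes from 0. For Derl1 and Wfs1 the KO noCys group alone stands above the rest, for Derl3 the 3 KO noCys, 4 of the KO noTrp and 1 of the WT noTrp livers do, and for Derl2 the groups overlap.

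Syvn1 (chr19:6046576-6053712, + strand), the ubiquitin ligase of ERAD, measured 163, 173 and 246 CPM in KO noCys, 67.2, 85.8, 93.5 and 126 in WT noCys, with 102, 89.97, 106 and 105 in KO CTR. WT CTR held 109, 81.6 and 123 CPM, WT noTrp 107 and 117 and KO noTrp 109.9, 171, 96.1, 182 and 129.5. KO noCys did not overlap with WT noCys or the control groups, at 1.06 ± 0.22 (SE, adjusted p = 0.00112) against WT noCys and 0.94 ± 0.21 (SE, adjusted p = 0.00417) against KO CTR. It overlaps Mrpl49 on the opposite strand. Its partner Sel1l was at 0.19 (adjusted p = 0.297) against WT noCys, and the lectins and mannosidase-like proteins that bring glycoproteins to it were at -0.09 (adjusted p = 0.609) for Edem1, 0.14 (adjusted p = 0.506) for Edem2 and 0.16 (adjusted p = 0.207) for Os9. Herpud1, a scaffold of the same complex with the second form of the element in its window, measured 686, 564 and 501 CPM in KO noCys and 661, 664, 734 and 780.3 in WT noCys, at -0.28 (adjusted p = 0.28). None of these 5 was called in any comparison.

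Wfs1 (chr5:36966104-36989205, - strand), a membrane protein of the ER involved in its calcium balance, measured 20.6, 20.4 and 20.4 CPM in KO noCys, 7.29, 9.35, 9.88 and 11.1 in WT noCys, with 11.9, 10.7, 10.5 and 11 in KO CTR. WT CTR held 9.11, 10.3 and 11 CPM, WT noTrp 11.8 and 11.1 and KO noTrp 8.09, 14.5, 10.6, 18.3 and 12.6. The KO noCys livers were above all 18 others and nearly equal to each other, and the log2 fold change was 1.12 ± 0.19 (SE, adjusted p = 0.000216) against WT noCys and 0.89 ± 0.19 (SE, adjusted p = 0.00215) against KO CTR. Of the translocon, the channel through which new chains enter the ER, Sec61a1 (chr6:88503579-88518905, - strand) measured 268, 250 and 254 CPM in KO noCys, 156, 145, 187 and 187 in WT noCys, with 207, 188, 212 and 225 in KO CTR. WT CTR held 174, 166 and 198 CPM, WT noTrp 228 and 204 and KO noTrp 191, 207, 197, 268 and 213. It was higher than in WT noCys by 0.61 ± 0.12 (SE, adjusted p = 0.000773) without overlap, and stood at 0.31 (adjusted p = 0.0709) against KO CTR. Sec61b, a small subunit of the same channel, was at -0.12 (adjusted p = 0.569) and -0.40 (adjusted p = 0.0558).

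Removing tryptophan asked whether these genes also respond to loss of another amino acid. In KO liver, 11 members (34.4%) were higher in KO noTrp than in KO CTR and 0 were lower, while 0.779% of all genes were called higher and 1.09% lower. Scaling by library totals alone called 12, with 55.5% of all called genes higher against 41.6%. The 11 called after TMM scaling were Hspa5 at 0.82 (adjusted p = 0.0264), Hyou1 at 0.85 (adjusted p = 0.0465), Calr at 0.73 (adjusted p = 0.00545), Dnajb11 at 0.75 (adjusted p = 0.00299), Dnajc3 at 0.43 (adjusted p = 0.021), Sdf2l1 at 1.38 (adjusted p = 0.0187), Pdia3 at 0.57 (adjusted p = 0.0398), Pdia4 at 0.81 (adjusted p = 0.0153), Pdia6 at 0.70 (adjusted p = 0.0264), Creld2 at 1.25 (adjusted p = 0.0336) and Derl3 at 3.17 (adjusted p = 0.0138) on the log2 scale. The median over the 32 members was 0.291 and over all genes 0.003. They included 6 of the 9 chaperones and co-chaperones (not Hsp90b1, Canx and Dnajb9) and 3 of the 4 disulfide isomerases (not P4hb), and none of the 5 sensors. DESeq2 and limma-voom each called 13 higher and 0 lower, and 18 members had an unadjusted p under 0.05, of which 1 (Ern1) had a negative difference. KO noTrp shares its KO CTR controls with the KO noCys comparison. The count rested on single libraries: it was 2 (Calr and Dnajb11) without KO CTR replicate 1, 7 without KO CTR replicate 3, 5 without KO noTrp replicate 4 and 3 when the groups were fitted alone, with a median of 0.242 to 0.336 over the libraries left out. Of 10 Kupffer markers, Clec4f was called higher in the same comparison, at 0.86, 7 had an unadjusted p under 0.05 with 0 of them negative, and their summed level was 205 to 352 CPM in KO noTrp and 125 to 271 CPM in KO CTR. Of 10 stellate and endothelial markers 0 were called in edgeR's test and 9 had an unadjusted p under 0.05, 5 of them negative, and of 9 hepatocyte markers Ttr was called lower, at -0.46. The mitochondrial share of counts was 3.41% to 4.79% in KO noTrp and 4.49% to 7.29% in KO CTR. The part of any of these in the members' difference was not tested.

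The KO noTrp livers spread widely for several of these genes. KO noTrp replicate 4 was the highest of its group in 21 of the 32 members and replicate 1 in 2. In other groups WT noCys replicate 4 was the highest in 28 of the 32 and WT CTR replicate 3 in 21. Without that WT noCys liver, 17 members were called between the genotypes on the cysteine-free diet. The share of all genes for which each of these libraries was highest is not given. For Sdf2l1 the KO noTrp livers ran from 35.1 CPM in replicate 1 to 128 in replicate 4, and for Derl3 from 2.44 to 30.9 in the same 2 livers. With 1 library left out at a time, Calr and Dnajb11 were called in all 9 fits, Hyou1 in 1, Pdia3 in 2 and Creld2 in 3.

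KO noCys and KO noTrp were then compared directly. Of the 32 members, 3 were higher in KO noCys and 1 was lower, against 7.17% and 6.75% of all genes, and the median difference was 0.021. Derl1 was higher by 0.62 ± 0.09 (SE, adjusted p = 0.00028) with no overlap, Wfs1 by 0.69 ± 0.18 (SE, adjusted p = 0.0126), also with none, and Ern1 by 0.78 ± 0.18 (SE, adjusted p = 0.00692) with overlap. Sec61b was lower, at -0.48 ± 0.14 (SE, adjusted p = 0.0264), and its KO noCys libraries (66.8, 61.8 and 73 CPM) lay below all 5 KO noTrp libraries (75.7, 114, 91.3, 97.7 and 90.1 CPM). Without KO noCys replicate 3 Derl1 alone was called. DESeq2 called 4 higher and 3 lower and limma-voom 6 and 3, and the lower ones included Canx and Pdia3, at -0.27 and -0.41 here. Scaling by library totals alone called 5 higher and 0 lower, with 68.3% of all called genes higher against 51.5%, so the lower call of Sec61b depended on the scaling. The 9 members called in both depletions against KO CTR had these differences here, none of them called: -0.29 ± 0.14 (SE) for Calr, -0.14 ± 0.13 for Dnajb11, 0.02 ± 0.10 for Dnajc3, 0.26 ± 0.20 for Hspa5, 0.20 ± 0.23 for Hyou1, -0.01 ± 0.31 for Sdf2l1, 0.02 ± 0.18 for Pdia4, 0.16 ± 0.31 for Creld2 and 0.16 ± 0.57 for Derl3. Pdia3 and Pdia6, called in KO noTrp and not in KO noCys, were at -0.41 (adjusted p = 0.0836) and -0.42 (adjusted p = 0.108) in this test, so their difference between the diets was not called. Of 10 Kupffer markers 3 were called lower in KO noCys in the same comparison (Cd5l, C1qa and C1qb, at -0.97, -0.93 and -0.86), and 8 had an unadjusted p under 0.05, all 8 of them negative. Of 10 stellate and endothelial markers 3 were lower (Kdr, Pecam1 and Stab2, at -0.70, -0.66 and -0.61), as were Spp1 of 6 cholangiocyte, Cd79b of 6 plasma and B cell and Ttr of 9 hepatocyte markers, at -1.32, -2.003 and -0.47. The part of these cells in the members' differences was not tested.

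**Figure D5:**
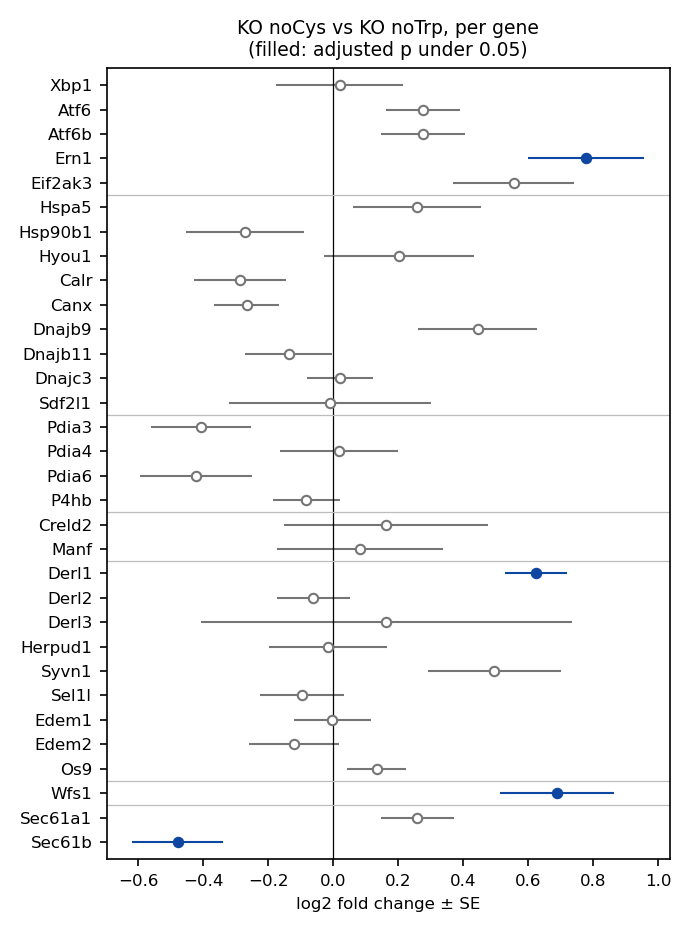
Log2 fold change of each member (points) between KO noCys and KO noTrp with its standard error (bars), ordered by role. Filled points had an adjusted p under 0.05: Derl1, Wfs1 and Ern1 to the right of 0 (higher in KO noCys) and Sec61b to the left.

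In WT liver, cysteine removal gave no such call. Between WT noCys and WT CTR, 0 were higher and 0 lower in edgeR's test, against 0.39% and 0.271% of all genes, with 5 at an unadjusted p under 0.05 and 1 (Atf6b) called by DESeq2 and by limma-voom. The median was -0.092. Atf6b, at 0.58 (adjusted p = 0.0666), came closest, and its WT noCys libraries were above all 3 WT CTR libraries. Hspa5 was at -0.18 (adjusted p = 0.757), Creld2 at -0.18 (adjusted p = 0.862) and Derl1 at -0.04 (adjusted p = 0.896). Tryptophan removal in WT liver called 2 members higher, Calr at 0.82 (adjusted p = 0.0164) and Atf6b at 0.66 (adjusted p = 0.0371), and 0 lower, against 1.7% and 1.5% of all genes, with 2 WT noTrp libraries. The median was 0.299, and both calls were lost without WT noTrp replicate 2 or WT CTR replicate 1. Of 6 members at an unadjusted p under 0.05, 0 had a negative difference, DESeq2 called 3 higher and limma-voom 0, and scaling by library totals alone called 4 with 78.0% of all called genes higher against 53.2%. A group left with 1 library was taken to vary like the others. In the same comparison 0 of 10 Kupffer markers were called in edgeR's test and 7 had an unadjusted p under 0.05, all 7 of them positive (median 0.807), with summed levels of 293 and 321 CPM in WT noTrp and 115 to 199.6 CPM in WT CTR. Of 10 stellate and endothelial markers Lyve1 was called higher at 1.40 and Reln lower at -0.84, 5 had an unadjusted p under 0.05, 3 of them negative, and 1 of 9 hepatocyte markers (Ttr, -0.52) was called lower. The mitochondrial share of counts was 3.70% and 3.89% in WT noTrp and 6.51% to 7.51% in WT CTR. The part of any of these in the members' values was not tested.

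On the other diets the genotype gave no call among the members. Between KO CTR and WT CTR 0 were higher and 0 lower in edgeR's test, against 0.0696% and 0.251% of all genes, with 1 at an unadjusted p under 0.05 (Atf6b) and 0 called by DESeq2 and by limma-voom. Of all genes called there, 21.7% were higher, against 42.5% by DESeq2, 33.7% by limma-voom and 36.6% when scaled by library totals alone. Between KO noTrp and WT noTrp 0 were higher and 0 lower, against 0.0696% and 0.125%, with 0 at an unadjusted p under 0.05 and 0 by DESeq2 and by limma-voom. The median differences were 0.041 and 0.113. Derl3 had the widest interval, at 1.10 ± 0.72 (SE) between KO noTrp and WT noTrp.

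Whether cysteine removal acted differently in the 2 genotypes was tested as a difference of differences. Of the 32 members, 10 had a higher difference (KO noCys minus KO CTR, less WT noCys minus WT CTR) and 0 a lower one, against 3.56% and 3.88% of all genes. They were Hspa5 at 1.25 (adjusted p = 0.0134), Hyou1 at 1.39 (adjusted p = 0.0169), Dnajb11 at 0.72 (adjusted p = 0.0306), Sdf2l1 at 1.65 (adjusted p = 0.0372), Pdia4 at 1.10 (adjusted p = 0.0162), Creld2 at 1.60 (adjusted p = 0.0419), Manf at 1.27 (adjusted p = 0.045), Derl1 at 0.83 (adjusted p = 0.00187), Syvn1 at 1.11 (adjusted p = 0.031) and Wfs1 at 1.00 (adjusted p = 0.0291). In WT liver the 10 ran from -0.53 (Manf) to -0.04 (Derl1), none of them called, and in KO liver Manf, at 0.74, was the one not called. The median of the members was 0.428, and all 18 members at an unadjusted p under 0.05 had a positive difference. DESeq2 called 12 higher and 0 lower and limma-voom 13 and 0. Scaling by library totals alone called 16 and moved the share of higher genes among all calls from 47.9% to 72.6%. The calls depended on single libraries: without KO noCys replicate 3 and WT CTR replicate 3, the libraries with the most extreme scaling factors, Derl1 alone was called, and the count ran from 2 to 11 with 1 library left out. It was 6 or fewer without WT CTR replicates 1 or 3, KO CTR replicate 1, WT noCys replicates 1, 2 or 3, or KO noCys replicates 3 or 4. Hspa5 and Derl1 were called in all 14 such fits, with differences of 1.10 to 1.43 and 0.69 to 0.92.

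The genotype difference without cysteine was larger than that without tryptophan for 3 members, against 3.32% of all genes, and smaller for 0, against 3.03%. These were Derl1 at 0.83 (adjusted p = 0.00206), Wfs1 at 0.97 (adjusted p = 0.0429) and Sec61a1 at 0.61 (adjusted p = 0.0418). Derl1 was called whichever library was left out, while Wfs1 and Sec61a1 were each called in 4 of 14 fits, and the count was 1 without WT noCys replicates 1 or 2, KO noCys replicates 3 or 4, WT noTrp replicate 1 or KO noTrp replicates 3 or 5, 5 without WT noCys replicate 4 and 8 without KO noTrp replicate 4. All 14 members at an unadjusted p under 0.05 had a positive difference, DESeq2 called 6 and limma-voom 1, and scaling by library totals alone called 8 with 81.4% of all called genes higher against 52.3%. A fit with a replicate block called 11 higher and 0 lower. The matching test for tryptophan, added after the data were seen, called 0 members in either direction and 0% and 0% of all genes, with 1 member (Sel1l, 0.44) at an unadjusted p under 0.05 and 0 called by DESeq2 and by limma-voom.

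Other genes of the secretory pathway were counted from lists, beside the 14.8% of all genes called higher and 13.4% called lower between KO noCys and WT noCys. Of 19 genes for N-glycan attachment and trimming and for glycoprotein quality control and export, 9 (47.4%) were higher in KO noCys compared with WT noCys and 0 lower (median 0.370, with 1 of 12 genes at an unadjusted p under 0.05 negative), led by Mcfd2, which forms an export receptor for glycoproteins with the lectin Lman1, at 0.83 (adjusted p = 7.53e-06), and the oligosaccharyltransferase subunits Stt3a at 0.82 (adjusted p = 0.000115) and Rpn1 at 0.77 (adjusted p = 0.00031). Of 25 further ERAD factors 8 (32%) were higher and 2 (8%) lower (median 0.185), and of 22 genes of translocation and signal peptide processing 6 (27.3%) were higher and 2 (9.09%) lower (median 0.158). In these lists Ubxn4, which recruits the ATPase VCP to the ER, was at 0.80 (adjusted p = 0.002), Stub1 at 0.53 (adjusted p = 0.0413) and Ube2g1 at -0.41 (adjusted p = 0.0055), and the signal recognition genes Srp68 and Srprb were at 0.77 (adjusted p = 5.62e-05) and 0.72 (adjusted p = 0.00748). Tram2 was at -0.68 (adjusted p = 0.0195). Of 27 oxidative folding enzymes and further ER chaperones, 4 (14.8%) were higher and 4 (14.8%) lower (median 0.148), shares near those of all genes: Hspa13 was at 0.81 (adjusted p = 0.00116), while Qsox1, a sulfhydryl oxidase, was lower at -1.33 (adjusted p = 2.96e-06) and Tmx4 at -0.70 (adjusted p = 0.00223).

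Of 18 regulators of the response and their proteases, 2 (11.1%) were higher and 3 (16.7%) lower (median -0.065), shares near the 14.8% and 13.4% of all genes. Bloc1s1, whose mRNA is a known substrate of the IRE1α nuclease, was at -1.36 (adjusted p = 2.61e-05), the cell death gene Bak1 at -0.76 (adjusted p = 0.00589) and the ER-bound factor Creb3 at 0.61 (adjusted p = 0.000497). Of 16 genes of the eIF2α kinases and the ATF4 to CHOP arm, which amino acid loss also activates through GCN2, 6 (37.5%) were higher and 3 (18.8%) lower (median 0.244), led by Nupr1 at 5.18 (adjusted p = 1.32e-06), Trib3 at 2.70 (adjusted p = 7.08e-05) and Chac1 at 2.32 (adjusted p = 0.000762). In WT noTrp (2 libraries) against WT CTR 1 of these 16 was called higher and 0 lower, against 1.7% and 1.5% of all genes. There, 5 had an unadjusted p under 0.05, 0 of them negative, and the differences ran from -0.401 to 3.911. In KO noTrp against KO CTR 0 of these 16 were called in edgeR's test and 4 had an unadjusted p under 0.05, 3 of them negative, and Nupr1, Trib3 and Chac1 were at -0.13, 0.35 and -0.10. In that comparison, where 0.779% of all genes were called higher, 3 of the 19 glycan genes and 2 of the 27 oxidative folding genes were called higher, and 0 of the ERAD, translocation and regulator lists, where 7, 6 and 6 genes had an unadjusted p under 0.05, and 3, 2 and 4 of these were negative. In KO noCys against KO CTR, with 10.6% of all genes called higher and 9.59% lower, 10 of the glycan genes were higher and 0 lower, 4 of the ERAD genes higher and 1 lower, 2 of the translocation genes higher and 2 lower, 8 of the kinase and ATF4 genes higher and 2 lower, 5 (18.5%) of the oxidative folding genes higher and 4 (14.8%) lower, and 1 (5.56%) of the regulators higher and 3 (16.7%) lower.

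Chaperones of the cytosol and mitochondria, outside the ER, were counted beside the members. Of 16, 11 (68.8%) were higher in KO noCys compared with WT noCys and 0 lower (median 0.679, with 0 of 13 genes at an unadjusted p under 0.05 negative), against 14.8% and 13.4% of all genes, led by Hspa8 at 1.31 (adjusted p = 1.36e-05), Hspa9 at 1.14 (adjusted p = 2.96e-06) and Hsph1 at 1.10 (adjusted p = 0.00203). Against KO CTR 12 of the 16 were higher in KO noCys and 2 (Hspa8 and Dnaja1) in KO noTrp. Of 18 secreted hepatocyte proteins, the cargo of the pathway, 11 (61.1%) were lower in KO noCys than in WT noCys and 2 (11.1%) higher (median -0.567), with Trf, transferrin, at -2.03 (adjusted p = 1.68e-05), Alb, albumin, at -1.15 (adjusted p = 0.00108) and Ttr, transthyretin, at -1.03 (adjusted p = 5.40e-06).

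Markers of other liver cells were counted in the same comparison, where 13.4% of all genes were called lower. Between KO noCys and WT noCys, 2 of 10 (20%) Kupffer markers were lower (Cd5l at -0.76 and C1qb at -0.69), as were 3 of 10 (30%) stellate and endothelial markers (Col3a1, Kdr and Pecam1, at -1.37, -0.69 and -0.58) and 2 of 6 (33.3%) cholangiocyte markers (Spp1 and Sox9, at -1.64 and -1.12), and none of these lists had a higher gene. Plasma cells, which carry high levels of many of the 32 members, had summed marker levels of 5.53 to 7.49 CPM over 10 genes in KO noCys and 35.9 CPM in WT noCys replicate 1 and 7.92 to 11.6 CPM in the other WT noCys livers, with 4 of the 6 tested (66.7%) lower (Jchain at -2.12, Mzb1 at -1.40, Igkc at -1.83 and Ighm at -1.82). Of 9 hepatocyte markers 4 (44.4%) were lower, with Serpina1a at -1.01. Without WT noCys replicate 1, 2 of the 6 plasma cell markers (Jchain at -1.55 and Mzb1 at -1.37) were called lower, and 1 Kupffer, 2 stellate and endothelial, 2 cholangiocyte and 4 hepatocyte markers. In that fit Igkc was at -1.11 and Ighm at -0.11, and neither was called. Against KO CTR, where 9.59% of all genes were lower in KO noCys, 0 of 10 Kupffer markers were called in edgeR's test (1 at an unadjusted p under 0.05, negative), with Cd5l at -0.37 and C1qb at -0.19. In that comparison 3 of 10 stellate and endothelial (Col1a1, Col3a1 and Stab2, at -1.33, -1.55 and -0.57), 1 of 6 cholangiocyte (Spp1, -1.29), 1 of 6 plasma and B cell (Cd79b, -1.86) and 3 of 9 hepatocyte markers (Alb, Ttr and Serpina1a, at -0.67, -0.92 and -0.67) were lower and none higher. The mitochondrial share of counts was 3.77% to 5.51% in KO noCys, 4.49% to 7.29% in KO CTR and 4.54% to 7.67% in WT noCys. The part of any of these in the members' differences was not tested. Summed over the 32 members, the level was 9437 to 10974 CPM in KO noCys, 6782 to 8534 in WT noCys, 7152 to 8806 in KO CTR, 7079 to 8254 in WT CTR, 9573 to 9911 in WT noTrp and 9297 to 12701 in KO noTrp.

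Per kilobase of exon, the levels of 31 members in KO CTR were ordered as follows. P4hb was highest (569 ± 42.5 CPM, SD, n = 4), then Calr (317 ± 49.0) and Herpud1 (251 ± 38.2). Hsp90b1 (162 ± 21.3), Hspa5 (149 ± 28.7), Pdia3 (145 ± 22.0) and Os9 (132 ± 11.5) came next, the last 3 each differing from the one before by less than the larger of the 2 SDs. At the low end stood Atf6b (6.59 ± 0.802), Atf6 (5.95 ± 0.79), Ern1 (4.63 ± 0.918), Wfs1 (2.91 ± 0.166) and Eif2ak3 (1.91 ± 0.33), above Derl3. Manf was left out of this order because it overlaps Rbm15b on its own strand.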

How the data were processed

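Liver RNA-seq of 21 mice was analysed. The deposited values are raw read counts per gene (Ensembl identifiers): per the submitters' processing notes and the study's methods, the authors aligned reads with HISAT2 2.1.0 to GRCm38, counted them with HTSeq 0.11.0 and compared groups with DESeq2. Which annotation was counted, and whether by strand, is not given in the sources used here. GENCODE M21 named 45229 of 46078 identifiers. No identifier was dropped from the library totals (8889951 to 27230852 counts), and 1 column that matched no sample was not used.

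Groups came from the sample labels. Genes were filtered with filterByExpr (minimum count 10, minimum total 15), which kept 14370 of the 26504 with any count. Counts were scaled by TMM (0.883 to 1.14) and fitted over all 6 groups with edgeR 4.0.16 (R 4.3.3) by the quasi-likelihood test, with Benjamini-Hochberg adjustment at 0.05. P-values measure only the spread between these samples. Alternatives were DESeq2 1.42.0, limma-voom with quality weights (limma 3.58.1), other scalings, no filter, a replicate block, the compared groups alone and each library left out. The difference of tryptophan removal between genotypes, and the fit without both libraries that stood apart in scaling, were added after the data were seen.

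All 32 members could be named. Library values were given for the 12 members with the smallest adjusted p in KO noCys against WT noCys or against KO CTR and for the 5 sensors and factors, and each other list was represented by up to 3 called genes of largest change with a mean log2 CPM over 1. Other genes named beside counts of 5 or fewer, and the library values of Cth, Derl2, Herpud1 and Sec61b, were chosen after their values were seen. The members and the other gene lists were chosen with earlier results of these data known.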

Additional observations from a re-analysis of the deposited data

Results flagged for a closer look

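Cysteine removal acted differently in the 2 genotypes, by a test of the difference itself, on 10 members: Hspa5 (1.25), Hyou1 (1.39), Dnajb11 (0.72), Sdf2l1 (1.65), Pdia4 (1.10), Creld2 (1.60), Manf (1.27), Derl1 (0.83), Syvn1 (1.11) and Wfs1 (1.00), each a log2 difference between KO and WT. Of all genes, 3.56% had a higher and 3.88% a lower difference. By the same kind of test, the genotype difference was larger without cysteine than without tryptophan for Derl1 (0.83), Wfs1 (0.97) and Sec61a1 (0.61). It was larger for 3.32% and smaller for 3.03% of all genes. The first count ran from 2 to 11 with 1 library left out and was 1 (Derl1) without KO noCys replicate 3 and WT CTR replicate 3, and in the second Wfs1 and Sec61a1 were each called in 4 of 14 such fits and Derl1 in all 14. No cause of these differences was tested.

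In 96 sets of 4 or 5 libraries (3 groups for each of 32 members), 5 held a library that stood apart from the rest of its group by Dixon's test, and chance flags about 1 in 20. KO noTrp replicate 4 was high for Dnajc3 (321 CPM, nearest 274), Edem1 (146 CPM, nearest 128) and Sec61a1 (268 CPM, nearest 213). KO noTrp replicate 3 was low for Dnajb9 (58.0 CPM, nearest 73.2), and KO CTR replicate 2 was high for Ern1 (49.0 CPM, nearest 35.5).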

How the results depend on the processing

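Over the alternatives, 851 recomputed differences of called members kept their direction and call and 177 kept the direction and lost the call, and 0 changed sign. The number of members called moved by over 1.5 times as follows. For KO noCys against KO noTrp (4) it was 7 with DESeq2, 9 with limma-voom and 1 without KO noCys replicate 3 and WT CTR replicate 3. For the genotype difference between noCys and noTrp (3) it was 6 with DESeq2, 1 with limma-voom, 8 with library totals alone, 1 with the compared groups alone and 1 without those 2 libraries. For WT noCys against WT CTR (0) it was 1 with DESeq2 and with limma-voom and 2 (1 higher and 1 lower) with the compared groups alone. For WT noTrp against WT CTR (2) it was 0 with limma-voom and with the compared groups alone, 4 with library totals alone and 1 without those 2 libraries. Library totals alone gave 26 for KO noCys against WT noCys (17) and 16 for the difference of cysteine removal between genotypes (10), which was 1 without those 2 libraries. KO noTrp against KO CTR (11) gave 3 with the compared groups alone. The cause was not tested, apart from the smaller number of samples in some of these fits.

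With 1 library left out at a time, the count ran from 14 to 18 for KO noCys against WT noCys, 12 to 16 against KO CTR, 1 to 6 against KO noTrp, 2 to 11 for KO noTrp against KO CTR, 0 to 1 for WT noTrp against WT CTR, 2 to 11 for cysteine removal and 1 to 8 for the genotype difference, and stayed at 0 in the other 4. Without KO noCys replicate 3 and WT CTR replicate 3 it was 15 against WT noCys and 13 against KO CTR.

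No label says that the replicate numbers pair the animals. The deviations of libraries that share a number correlated at a median of -0.035 (-0.355 to 0.353, 41 pairs), against 0.012 (-0.384 to 0.24, 140 pairs) for the others. In groups of 2 to 5 livers these values cannot exclude a pairing. With a replicate block the genotype difference between noCys and noTrp called 11 members, and the other counts stayed within 1.5 times of those reported. Groups of 2 to 5 livers, and counts as low as 8 for Derl3, limit what could be called.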
